A study of Mus musculus with 24 samples.

Results

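The 10 genes followed here belong to the bone morphogenetic protein (BMP) pathway and were measured through the differentiation of muscle cells with and without silencing of Tead1 and Tead4. They were chosen by name as the rows of the deposited table whose gene symbol is Bmp2, Bmp4, Bmp6, Grem1, Nog, Smad6, Smad7, Id1, Id2 or Id3, which gave 10 of its 28109 genes. The cells sequenced were C2C12, a long-established mouse myoblast line whose strain label is C3H, and from primary myoblasts (PMs), which were isolated from the muscle of young wild-type mice with the strain label C57/B6. Cells were transfected with SMARTpool siRNAs against Tead1 and Tead4 together (siTead1/4) or against luciferase (siControl), so the controls also carried an siRNA, and were collected at day 0, 24 h after transfection and still in growth medium, or at day 3 or day 6 of differentiation in medium with low horse serum. Each of the 12 combinations had 2 biological replicates, giving 24 libraries, and with 2 per group the spread rests on few cultures. C2C12 cells and PMs also differed in strain, growth medium and coating of the dish, and these cannot be told apart from the cell type. PMs are a preparation from tissue in which other cells can remain, and in such bulk samples fewer cells of a type and less RNA per cell cannot be told apart.

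BMPs are secreted ligands that bind pairs of serine/threonine kinase receptors, which phosphorylate Smad1, Smad5 and Smad9. These enter the nucleus with Smad4 and switch on target genes, among which the Id genes respond most directly. Id proteins lack a DNA-binding region and hold E proteins such as Tcf3 away from Myod1, so that BMP signalling is known to hold myoblasts in growth and, in C2C12 cells, to divert them towards bone-like cells. Tead factors bind the MCAT element and act with Yap, Taz and Vgll cofactors.

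The positions that follow are those of the table on mm9, and all 10 genes are protein-coding. Bmp2 (chromosome 2, 133377895 to 133388621) and Bmp4 (chromosome 14, 47003195 to 47010344) encode closely related ligands that drive bone formation and limb and muscle patterning. Bmp6 (chromosome 13, 38436995 to 38592183) encodes a ligand best known for its part in iron balance. Grem1 (chromosome 2, 113586321 to 113598803) encodes Gremlin 1, which binds Bmp2 and Bmp4 outside the cell and keeps them from their receptors. Nog (chromosome 11, 89161952 to 89163873) encodes Noggin, another secreted trap of BMPs. Smad6 (chromosome 9, 63800883 to 63869866) and Smad7 encode the inhibitory Smads, which block receptor signalling as feedback, Smad6 mainly that of BMPs and Smad7 also that of Tgfb. Id1 (chromosome 2, 152561987 to 152563146), Id2 (chromosome 12, 25778666 to 25780957) and Id3 (chromosome 4, 135699412 to 135701670) encode the inhibitors of DNA binding. The libraries did not keep the strand, so reads of Bmp4 cannot be told apart from those of Gm15217 and Gm15222 on the opposite strand where they overlap, nor those of Bmp6 from those of Txndc5.

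RefSeq promoters (GRCm38.p6) were found for 6 of the 10 genes, and those of Bmp2, Nog, Smad7 and Id1 were not analysed here. The 250 bases before the start are shown for Grem1, which changed under siTead1/4, and for Id2 and Id3, which fell together during differentiation in both cell types (the last pair was chosen after the values were seen). Capitals mark matches on either strand to GGCGCC, an element bound by Smad1, to CANNTG, the E-box bound by the E proteins that Id proteins hold, or to CATTCC, the core of MCAT.
Grem1, chr2:113758649-113758898, minus strand: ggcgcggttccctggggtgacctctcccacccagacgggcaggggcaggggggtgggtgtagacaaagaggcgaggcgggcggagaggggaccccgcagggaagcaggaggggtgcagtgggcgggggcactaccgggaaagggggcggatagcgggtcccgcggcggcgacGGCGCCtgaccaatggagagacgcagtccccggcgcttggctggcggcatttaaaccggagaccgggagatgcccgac
Id2, chr12:25096093-25096342, minus strand: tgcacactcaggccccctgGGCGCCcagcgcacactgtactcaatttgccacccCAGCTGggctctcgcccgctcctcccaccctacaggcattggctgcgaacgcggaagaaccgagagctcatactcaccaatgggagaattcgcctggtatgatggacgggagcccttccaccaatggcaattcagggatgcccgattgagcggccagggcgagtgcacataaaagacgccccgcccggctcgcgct
Id3, chr4:136143572-136143821, plus strand: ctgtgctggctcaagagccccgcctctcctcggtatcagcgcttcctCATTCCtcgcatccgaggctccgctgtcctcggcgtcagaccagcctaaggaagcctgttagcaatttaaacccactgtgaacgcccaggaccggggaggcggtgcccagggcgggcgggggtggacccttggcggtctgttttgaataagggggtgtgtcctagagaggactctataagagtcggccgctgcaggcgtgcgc
The promoter of Grem1 held 1 GGCGCC, 78 bases before the start. That of Id2 held 1 GGCGCC at 231 bases and 1 E-box at 196 bases, and that of Id3 held 1 CATTCC at 203 bases. Among the other promoters, Bmp4 held E-boxes at 188, 177 and 123 bases and Bmp6 at 127 and 51 bases, while Smad6 held 1 in the bases after the start. None of these is a rare word. GGCGCC is in 11.9%, CANNTG in 72.3% and CATTCC in 14.7% of all 32851 mouse promoters of the same 300 bases (250 before and 50 after the start).

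The total count on genes lay between 25453830 and 52784510 per library, with medians of 40147146 in C2C12 cells and 39204772 in PMs. Tead1 fell to between 18.2% and 69.5% of its siControl mean in the siTead1/4 groups of C2C12 cells and to between 31.3% and 46.7% in PMs, and Tead4 to between 16.8% and 41.0% over both, with the weakest reduction of each at day 6. Tead1 was uneven in C2C12 cells at day 0, at 28.9 CPM (counts scaled to a common library size) in the 1st siTead1/4 library and 4.50 CPM in the 2nd. All 6 muscle markers (such as Myod1, Myog and Des) were detected in every group, and their summed level ran from 515 to 18449 CPM in C2C12 cells and from 8243 to 32413 CPM in PMs. Of 8 fibroblast markers, Tcf21 was at 0 throughout and Thy1 was at or near 0 in C2C12 cells but between 11.9 and 84.0 CPM in PMs, and the sum, mostly Col3a1, ran from 875 to 3695 CPM in C2C12 cells and from 419 to 1138 CPM in PMs. The 5 endothelial, 5 Schwann cell and 5 macrophage markers summed to at most 13.5, 18.8 and 9.29 CPM in any library. P-values weigh a change against the spread between replicates, estimated over all groups of a fit. The labels call these replicates biological.

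**Figure D1:**
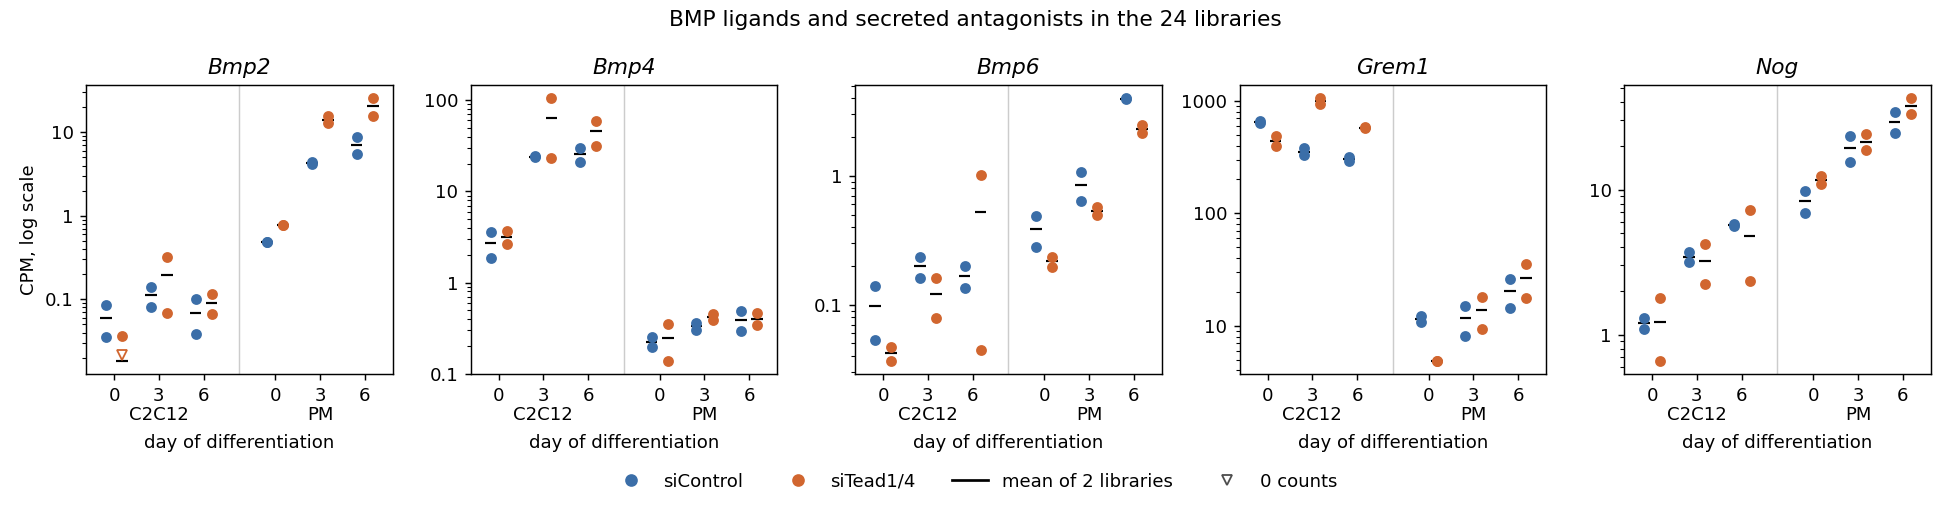
Levels of Bmp2, Bmp4, Bmp6, Grem1 and Nog in each library (points, CPM on a log axis) by cell type and day, with the mean of 2 libraries as a bar. An open triangle stands for the library with 0 counts and is set at the bottom. Bmp4 and Grem1 were higher in C2C12 cells, Bmp2, Bmp6 and Nog in PMs.

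Per kilobase of gene length, the scale on which genes can be compared, Id3 led at day 0 in siControl cells of both types. In C2C12 cells Id3 stood at 182 CPM per kb (181.8 and 182.3), above Grem1 at 155 CPM per kb (152 and 158), then Id2 at 118 and Id1 at 113 CPM per kb, whose libraries overlapped. Smad7 followed at 13.5 and Smad6 at 4.97 CPM per kb, and Bmp4 (1.31), Nog (0.623), Bmp6 (0.0271) and Bmp2 (0.0169) closed the order, the last pair overlapping. In PMs Id3 stood at 271, Id1 at 149 and Id2 at 120 CPM per kb, while Grem1 was 7th at 2.75 CPM per kb. Bmp2, Bmp4 and Bmp6 lay between 0.107 and 0.136 CPM per kb there, and Bmp6 could not be ordered against Bmp2 or Bmp4. By day 6 the order had changed in both. In C2C12 cells Grem1 led at 73.8 CPM per kb, followed by Id3 at 26.8, Id2 at 22.2 and Id1 at 19.9 CPM per kb. The libraries of these Id genes all overlapped. Bmp4 was the leading ligand at 12.4 CPM per kb. In PMs Id1 (23.4), Id3 (21.1), Nog (15.3) and Id2 (15.03 CPM per kb) were at the top, each with libraries that overlapped with the next. Bmp2 was the leading ligand at 2.01 CPM per kb, ahead of Bmp6 at 1.11 and Bmp4 at 0.189 CPM per kb.

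The first question was how the pathway moved when siControl cells differentiated. The 3 Id genes and Smad6 fell in both cell types, Nog rose in both by day 6, and the ligand that rose was Bmp4 in C2C12 cells and Bmp2 and Bmp6 in PMs. Here called means an edgeR quasi-likelihood p under 0.05 after adjustment over all genes tested together with a change of more than 1 on the log2 scale in either direction. In C2C12 cells, where Bmp2 and Bmp6 were too low to be tested, 6 of the 8 tested genes were called at day 3 against day 0, beside 28.7% of all 15303 genes tested, with 1 higher and 5 lower. At day 6 against day 0 all 8 tested genes were called, 2 higher and 6 lower, beside 31.1% of all genes. None was called at day 6 against day 3, where 0% of all genes were called by edgeR. No member had an unadjusted p under 0.05 in that comparison, and DESeq2 called 17 genes but no member. In PMs all 10 genes passed the filter. Of these, 8 were called at day 3 against day 0 beside 32.3% of 16144 genes, 7 at day 6 against day 0 beside 35.5%, and 1 at day 6 against day 3 beside 2.8%. The median log2 fold change of the members tested was -1.45 and -1.84 in C2C12 cells at days 3 and 6 against day 0, and -0.66 and 0.06 in PMs, while that of all genes stayed between -0.01 and 0.03.

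**Figure D2:**
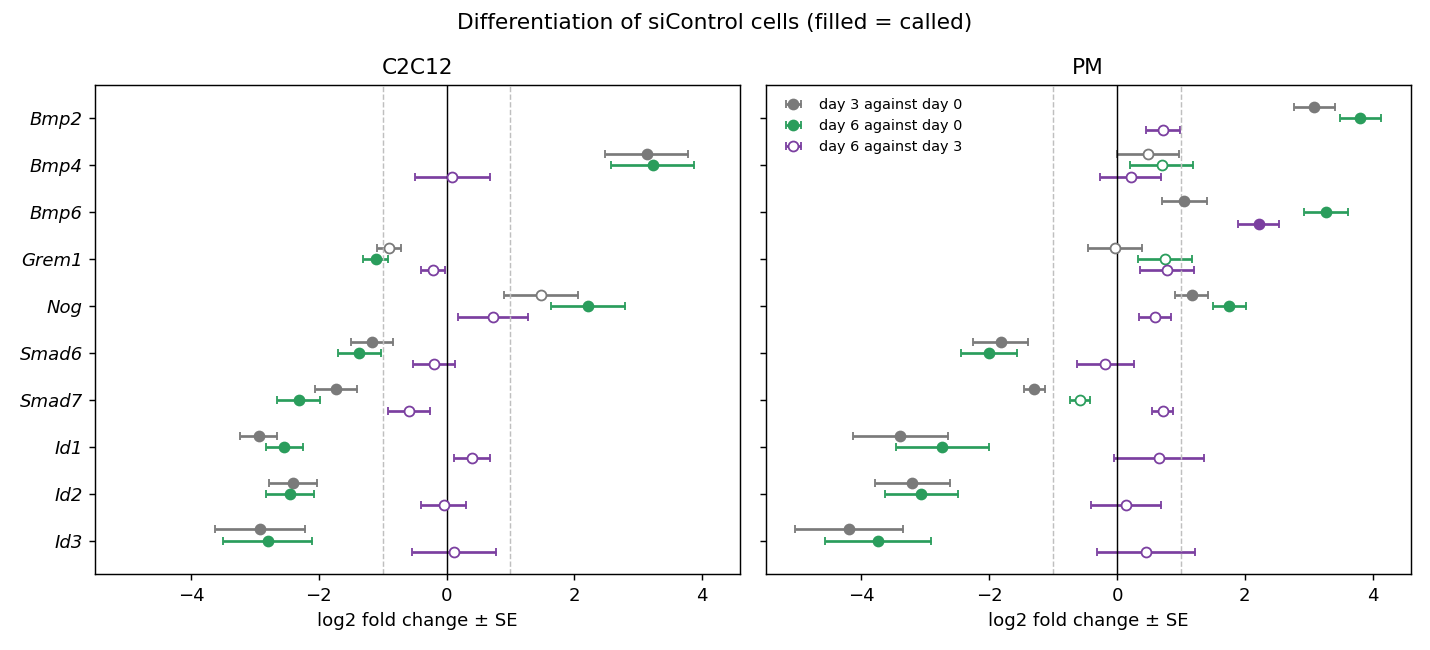
Log2 fold changes of siControl cells between days, as points with the SE as bars, for the 10 genes in C2C12 cells and PMs. Filled points were called, dashed lines mark a log2 fold change of 1 in either direction, and genes without a point were not tested. The Id genes lie furthest left in both panels.

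Among the ligands, Bmp4 was induced in C2C12 cells. Its siControl libraries stood at 3.55 and 1.85 CPM at day 0, 24.6 and 23.6 CPM at day 3, and 30.2 and 21.1 CPM at day 6. The later libraries did not overlap with those of day 0, and the log2 fold change was 3.13 ± 0.65 (SE, adjusted p = 0.00366, edgeR) at day 3 and 3.22 ± 0.65 (adjusted p = 0.00291, edgeR) at day 6. The summed fibroblast markers, mostly Col3a1, moved with it, from 875 and 1385 CPM at day 0 to 2740 and 3363 CPM at day 3. At day 6, 4 of the 6 tested were higher, while Thy1 and Tcf21 were at 0 at both day 0 and day 6. The part of these markers was not tested. In PMs Bmp4 was close to the limit of detection, at 7 to 15 counts and 0.197 to 0.485 CPM in the 6 siControl libraries, and was not called.

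Bmp2 was induced in PMs. The siControl libraries held 0.487 and 0.479 CPM at day 0, 4.40 and 4.20 CPM at day 3, and 5.56 and 8.71 CPM at day 6, so that each day lay above the last. The rise was 3.09 ± 0.33 on the log2 scale at day 3 (adjusted p = 1.78e-05, edgeR) and 3.81 ± 0.33 at day 6 (adjusted p = 3.54e-06, edgeR), while day 6 against day 3 was not called (0.72 ± 0.27, adjusted p = 0.145, edgeR). In C2C12 cells Bmp2 had 2 to 6 counts in each siControl library, too few for a test. Its level at day 3 was 2.00 times that at day 0 from 10 and 5 counts, with a 95% counting interval of 0.623 to 7.46 that covers counting error only.

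Bmp6 rose late in PMs, and this was the only one of the 10 genes called between days 3 and 6. Its siControl libraries stood at 0.487 and 0.282 CPM at day 0, 1.07 and 0.632 CPM at day 3, and 4.01 and 3.95 CPM at day 6. The step from day 3 to day 6 was 2.22 ± 0.32 on the log2 scale (adjusted p = 0.00593, edgeR), and that from day 0 to day 6 was 3.27 ± 0.34 (adjusted p = 1.45e-05, edgeR). The earlier step of 1.05 ± 0.35 (adjusted p = 0.0254, edgeR) was close to the threshold and was lost without the 1st day 3 library (0.63, adjusted p = 0.216, edgeR) or without the 2nd day 0 library (0.73, adjusted p = 0.158, edgeR). In a fit of all 24 libraries the step from day 3 to day 6 kept its size but had an adjusted p of 0.107 (edgeR). The summed fibroblast markers in PMs were 505 and 541 CPM at day 0, 419 and 635 CPM at day 3, overlapping with day 0 and with 2 of 7 tested higher, and 1138 and 1106 CPM at day 6, with 5 of 7 higher. The part of these markers in the rise of Bmp2 and Bmp6 was not tested. In C2C12 cells Bmp6 held 3 to 10 counts per siControl library.

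The 2 antagonists went different ways in C2C12 cells. Grem1 fell from 631 and 657 CPM at day 0 to 378 and 331 CPM at day 3 and 317 and 295 CPM at day 6. The fall was 0.90 ± 0.19 on the log2 scale at day 3 (adjusted p = 0.00392, edgeR), short of the fold threshold, and 1.11 ± 0.19 at day 6 (adjusted p = 0.00112, edgeR), which was called. Nog, in contrast, stood at 1.10 and 1.30 CPM at day 0, 3.16 and 3.72 CPM at day 3, and 5.82 and 5.61 CPM at day 6. It was called at day 6 (2.21 ± 0.58, adjusted p = 0.0115, edgeR) and had an adjusted p of 0.0627 at day 3 (1.48 ± 0.57, edgeR), where DESeq2 called it (adjusted p = 0.0238). The call at day 6 was lost without the 1st (adjusted p = 0.0725, edgeR) or the 2nd (adjusted p = 0.058, edgeR) day 0 library.

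In PMs Nog rose as well, from 6.85 and 9.83 CPM at day 0 to 15.5 and 23.3 CPM at day 3 and 24.6 and 34.3 CPM at day 6. Its log2 fold change was 1.17 ± 0.26 at day 3 (adjusted p = 0.00289, edgeR) and 1.76 ± 0.26 at day 6 (adjusted p = 0.000191, edgeR). At day 3 the fold fell under the threshold without the 1st day 0 library (0.93) or the 2nd day 3 library (0.85). Grem1 was low in PMs, at 10.8 and 12.1 CPM at day 0, 15.1 and 8.14 CPM at day 3, and 26.0 and 14.3 CPM at day 6. It had no call there, with a log2 fold change of 0.75 ± 0.42 (adjusted p = 0.146, edgeR) at day 6.

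Both inhibitory Smads were repressed. In C2C12 cells Smad7 stood at 60.3 and 61.6 CPM at day 0, 25.4 and 12.5 CPM at day 3, and 11.8 and 13.4 CPM at day 6, and its log2 fold change was -1.73 ± 0.33 at day 3 (adjusted p = 0.00251, edgeR) and -2.31 ± 0.34 at day 6 (adjusted p = 0.000469, edgeR). Smad6 went from 15.8 and 16.05 CPM to 7.31 and 7.23 CPM at day 3 and 5.72 and 7.02 CPM at day 6. Its log2 fold change was -1.17 ± 0.33 (adjusted p = 0.0181, edgeR) at day 3, a call lost without any 1 of the 4 libraries (adjusted p from 0.0661 to 0.0919, edgeR), and -1.36 ± 0.34 (adjusted p = 0.00839, edgeR) at day 6, lost without the 1st day 6 library (adjusted p = 0.0681, edgeR). In PMs Smad6 fell from 15.6 and 19.7 CPM to 3.17 and 7.20 CPM at day 3 and 3.30 and 5.93 CPM at day 6 (log2 fold changes of -1.82 ± 0.43 and -2.00 ± 0.44, adjusted p = 0.00404 and 0.00237, edgeR). Smad7 dipped and came back there. Its libraries stood at 21.8 and 21.6 CPM at day 0, 9.01 and 9.43 CPM at day 3, and 14.0 and 16.5 CPM at day 6. The fall at day 3 was called (-1.29 ± 0.16, adjusted p = 6.3e-05, edgeR). At day 6 the difference from day 0 was -0.58 ± 0.16 (adjusted p = 0.00912, edgeR) and that from day 3 was 0.71 ± 0.16 (adjusted p = 0.0328, edgeR), both past the p threshold and short of the fold threshold.

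**Figure D3:**
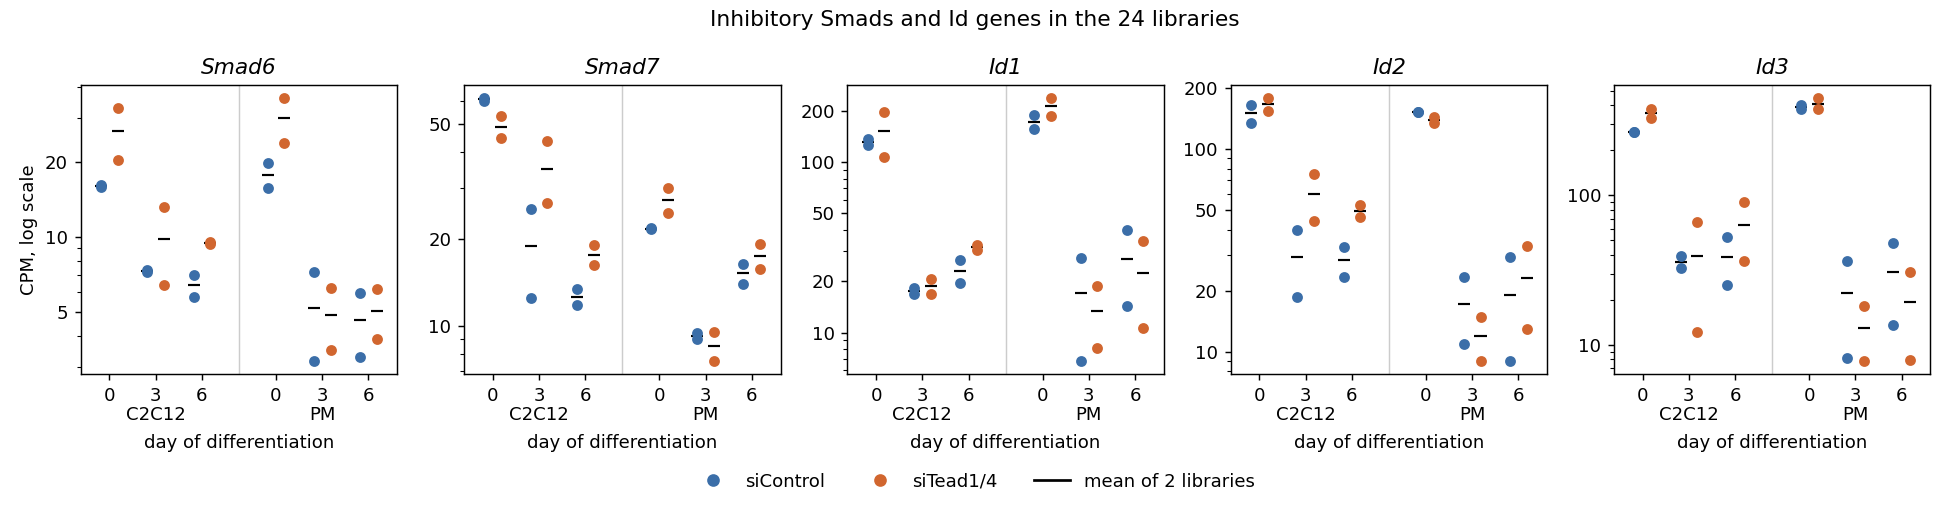
Levels of Smad6, Smad7, Id1, Id2 and Id3 in each library (points, CPM on a log axis) by cell type and day, with the mean of 2 libraries as a bar. The siControl libraries of day 0 lie above those of days 3 and 6 in every panel, and the replicates of the Id genes in PMs lie far apart at days 3 and 6.

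Among the 10 genes, the 3 Id genes had the largest falls at days 3 and 6 against day 0 in both cell types. Id3 went in C2C12 cells from 265 and 264 CPM at day 0 to 39.5 and 32.5 CPM at day 3 and 52.6 and 25.2 CPM at day 6. Id1 went from 126 and 137 CPM to 16.8 and 18.3 CPM at day 3 and 26.6 and 19.6 CPM at day 6. Id2 went from 135 and 165 CPM to 39.8 and 18.6 CPM at day 3 and 33.0 and 23.4 CPM at day 6. No day 3 or day 6 library reached a day 0 library, and the 6 log2 fold changes lay between -2.40 (Id2 at day 3) and -2.94 (Id1 at day 3), with adjusted p from 5.08e-05 to 0.00909 (edgeR). The call of Id3 was lost without the 2nd day 3 library (adjusted p = 0.0653, edgeR) and without the 2nd day 6 library (adjusted p = 0.0676, edgeR).

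In PMs the Id genes started from like levels and fell further in the 1st library than in the 2nd. Id3 stood at 380 and 405 CPM at day 0, 8.19 and 36.4 CPM at day 3, and 13.6 and 47.7 CPM at day 6. Id1 stood at 156 and 189 CPM, then 6.82 and 27.2 CPM, then 14.2 and 40.0 CPM. Id2 stood at 153 and 152 CPM, then 10.9 and 23.5 CPM, then 9.02 and 29.1 CPM. The replicates at days 3 and 6 thus differed by 2.16 to 4.44 times, and all lay below those of day 0. The log2 fold changes were -4.19 ± 0.85 (Id3), -3.39 ± 0.74 (Id1) and -3.20 ± 0.58 (Id2) at day 3 and -3.74 ± 0.83, -2.73 ± 0.72 and -3.06 ± 0.58 at day 6, with adjusted p from 0.000771 to 0.00715 (edgeR). The call of Id1 at day 6 was lost without the 1st day 6 library (-2.17, adjusted p = 0.0503, edgeR). In all 4 PM groups of days 3 and 6 the 2nd library was the higher for Id1, Id2, Id3, Smad6, Smad7 and Nog and the lower for Grem1. The endothelial markers were the other way round, with sums of 4.50 to 13.2 CPM in the 1st libraries and 1.72 to 3.81 CPM in the 2nd, as were the Schwann cell markers, with sums of 9.61 to 18.8 against 2.45 to 3.16 CPM. At day 0 the 1st libraries had the higher sums as well. For the endothelial markers these were 10.1 against 2.34 CPM with siControl and 13.5 against 3.04 CPM with siTead1/4. For the Schwann cell markers they were 6.00 against 2.23 CPM and 7.26 against 2.53 CPM. The part of these markers in the spread was not tested.

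The next question was where PMs and C2C12 cells differ. In siControl cells PMs had more Bmp2 and Nog and less Bmp4 and Grem1 at all 3 days, more Bmp6 at days 3 and 6 and less Smad7 at days 0 and 3. The Id genes and Smad6 were not called at any day. In a fit of all 24 libraries, 5 of the 10 genes were called at day 0 beside 26.8% of 16926 genes, 6 at day 3 beside 29.8%, and 5 at day 6 beside 24.9%. Bmp2 and Bmp6, too low to be tested in C2C12 cells alone, passed the filter of this fit through PMs. Their calls are part of these counts, which thus lean towards genes higher in PMs. Grem1 was the furthest apart at day 0, with 10.8 and 12.1 CPM in PMs against 631 and 657 CPM in C2C12 cells. Its log2 fold change of PMs against C2C12 cells was -5.82 ± 0.42 (adjusted p = 9.74e-09, edgeR) at day 0, -4.94 ± 0.40 (adjusted p = 7.17e-08, edgeR) at day 3 and -3.92 ± 0.38 (adjusted p = 6.57e-07, edgeR) at day 6. Grem1 and Bmp4 are known from fibroblast-like cells of muscle, and the fibroblast markers differed between the cell types in both directions. Of the 7 tested at day 0, 3 were lower in PMs (Col3a1, Pdgfra and Pdgfrb) and 1 was higher (Thy1), with a median log2 fold change of 0.99 that includes fitted values of genes at 0 in C2C12 cells, while the sum, mostly Col3a1, was 505 and 541 CPM against 875 and 1385 CPM. At day 3 6 were lower and 1 was higher, and at day 6 1 was lower and 1 higher. The part of such cells in these differences was not tested. Of the 8 markers, 4 (Thy1, Dpt, Lum and Tcf21) were at 0 in the siControl C2C12 libraries of day 0.

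Bmp4 and Bmp2 were opposite. For Bmp4 the log2 fold change of PMs against C2C12 cells was -3.52 ± 0.69 (adjusted p = 0.000564, edgeR) at day 0, -6.16 ± 0.67 (adjusted p = 1.75e-06, edgeR) at day 3 and -6.03 ± 0.67 (adjusted p = 2.84e-06, edgeR) at day 6. Bmp2 had only 5 counts in the 2 C2C12 libraries of day 0 and of day 6, so its ratio is given with a 95% counting interval. It was 8.88 (3.51 to 28.8) at day 0 and 117 (49.6 to 361) at day 6, and at day 3 the log2 fold change was 5.26 ± 0.53 (adjusted p = 7.54e-07, edgeR). Bmp6 was 4.59 ± 0.77 higher on the log2 scale in PMs at day 6 (adjusted p = 0.000182, edgeR) and 2.08 ± 0.74 at day 3 (adjusted p = 0.0302, edgeR), the latter resting on 8 to 10 counts in C2C12 cells and lost without either C2C12 library (adjusted p = 0.0856 and 0.155, edgeR) or the 1st PM library (adjusted p = 0.176, edgeR). Nog was higher in PMs by 2.79 ± 0.48, 2.49 ± 0.45 and 2.36 ± 0.45 at days 0, 3 and 6 (adjusted p = 0.000195, 0.000302 and 0.000574, edgeR). Smad7 was lower in PMs by -1.49 ± 0.27 at day 0 (adjusted p = 0.000317, edgeR) and -1.04 ± 0.27 at day 3 (adjusted p = 0.0052, edgeR), of which the second became -0.46 (adjusted p = 0.175, edgeR) without the 1st C2C12 library. For the Id genes the interval of ± 1.96 SE stayed wide, from -0.97 to 2.11 for Id3 and from -0.96 to 1.004 for Id2 at day 0, so a difference of 2-fold cannot be told from none.

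The change from day 0 was also compared between the cell types as an interaction. At day 3 no member was called, beside 11.2% of all genes. Bmp4 (difference of -2.64 ± 1.02, adjusted p = 0.104, edgeR) and Bmp2 (adjusted p = 0.181, edgeR) had an unadjusted p under 0.05, and DESeq2 called Bmp4 (adjusted p = 0.0227), as it did at day 6 (adjusted p = 0.0322). At day 6 3 members were called, beside 12.7% of all genes. Bmp2 is 1 of these and passed the filter through PMs only, so the count leans towards genes high in PMs. Smad7 fell less in PMs (difference of 1.76 ± 0.38, adjusted p = 0.00416, edgeR), and Grem1 fell in C2C12 cells but not in PMs (1.89 ± 0.49, adjusted p = 0.0133, edgeR). Bmp2 rose in PMs, while no change could be read in C2C12 cells (adjusted p of the difference = 0.0316, edgeR). Grem1 lost the call without the 1st day 0 (adjusted p = 0.0547, edgeR) or 1st day 6 (1.41, adjusted p = 0.0912, edgeR) library of PMs. Bmp2 rests on 2 or 3 counts per C2C12 library and lost the call without any of 6 of the 8 libraries (adjusted p from 0.0539 to 0.252, edgeR). For Id1, Id2 and Id3 the difference at day 6 was -0.16 ± 0.82, -0.58 ± 0.72 and -0.92 ± 1.12.

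The third question was what Tead1 and Tead4 do to the pathway. Across both cell types and 3 days, siTead1/4 left the Id genes and both inhibitory Smads without a call. It raised 1 antagonist in C2C12 cells at day 3, Grem1, and 1 ligand in PMs at days 3 and 6, Bmp2. At day 0 Grem1 was lower in both cell types without a call by edgeR, and in PMs DESeq2 called this fall. In C2C12 cells 0 of 8 genes were called at day 0 beside 0.438% of all genes, 1 at day 3 beside 1.27%, and 0 at day 6 beside 0.0457%. In PMs 0 of 10 were called at day 0 beside 2.6%, 1 at day 3 beside 3.3%, and 1 at day 6 beside 0.743%. Where edgeR called none, the number of members with an unadjusted p under 0.05 was 2 at day 0 and 2 at day 6 in C2C12 cells and 1 at day 0 in PMs, and DESeq2 called none in C2C12 cells and 1 in PMs. Of the 6 muscle markers, 1 was called under siTead1/4 in C2C12 cells at day 3 (Myh3, lower), none there at days 0 and 6 and none in PMs at any day. The summed level at day 3 was 5910 and 7801 CPM in siTead1/4 C2C12 cells against 15160 and 17632 CPM in siControl, and 28895 and 27195 against 32413 and 31070 CPM in PMs, and the part of this in the changes below was not tested.

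**Figure D4:**
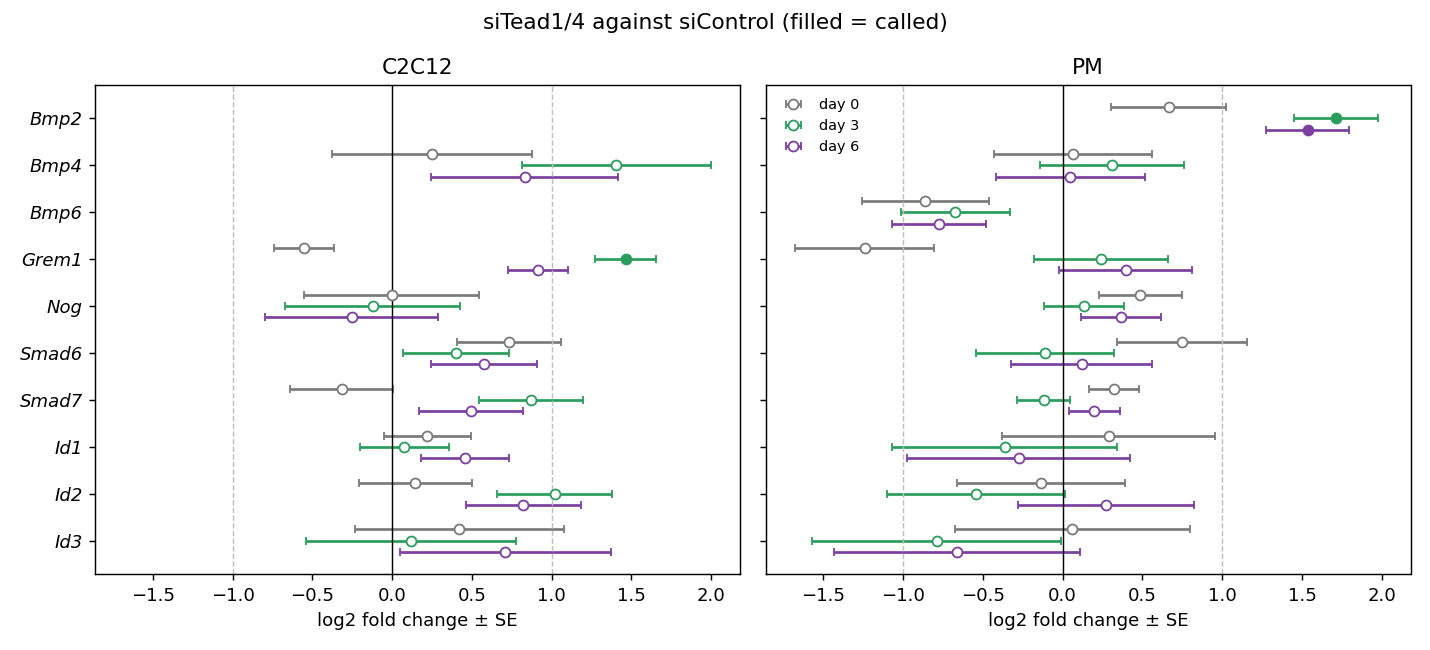
Log2 fold changes of siTead1/4 against siControl at days 0, 3 and 6, as points with the SE as bars, for the 10 genes in C2C12 cells and PMs. Filled points were called (Grem1 in C2C12 cells at day 3, Bmp2 in PMs at days 3 and 6), and dashed lines mark a log2 fold change of 1 in either direction.

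Grem1 went the opposite way at day 0 and day 3 in C2C12 cells. At day 0 it stood at 486 and 394 CPM in siTead1/4 cells against 631 and 657 CPM in siControl, at day 3 at 1059.6 and 930 CPM against 378 and 331 CPM, and at day 6 at 582 and 569 CPM against 317 and 295 CPM. The groups did not overlap at any day, with siTead1/4 below siControl at day 0 and above it later. The log2 fold change was -0.55 ± 0.19 at day 0 (adjusted p = 0.3, edgeR), 1.46 ± 0.19 at day 3 (adjusted p = 0.0135, edgeR) and 0.91 ± 0.19 at day 6 (adjusted p = 0.145, edgeR). Of these, only that of day 3 was called, and it was lost without the 1st (adjusted p = 0.0797, edgeR) or the 2nd (adjusted p = 0.134, edgeR) siControl library of day 3 and in a fit of the 4 libraries alone (adjusted p = 0.0758, edgeR), with folds of 1.38 to 1.55. The effect at day 3 minus that at day 0, a test chosen after the data were seen, was 2.02 ± 0.27 (adjusted p = 0.0801, edgeR). No member was called in it, beside 0% of all genes, with 2 members (Grem1 and Smad7) at an unadjusted p under 0.05, while DESeq2 called 329 genes with Grem1 among them (adjusted p = 2.42e-10). Without the 1st siTead1/4 library of day 0 or of day 3 the edgeR test called it too (2.16 and 1.93, adjusted p = 0.0391 and 0.0168). The summed fibroblast markers overlapped between the groups at day 3, with 3695 and 1583 CPM in siTead1/4 cells against 2740 and 3363 CPM in siControl.

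In PMs Grem1 was also lower at day 0, at 4.87 and 4.86 CPM in siTead1/4 cells against 10.8 and 12.1 CPM in siControl. The log2 fold change was -1.24 ± 0.44 with an adjusted p of 0.117 by edgeR, and it was called by DESeq2 (adjusted p = 0.0263). With a replicate block edgeR called it too, though the replicate numbers could not be shown to pair the samples. At day 3 Grem1 stood at 18.1 and 9.42 against 15.1 and 8.14 CPM and at day 6 at 35.5 and 17.5 against 26.0 and 14.3 CPM. The groups overlapped at both days, with log2 fold changes of 0.24 ± 0.42 and 0.40 ± 0.42. The effect at day 3 minus that at day 0, added after the data were seen, gave no call among the members, beside 0.328% of all genes, with Grem1 and Bmp2 at an unadjusted p under 0.05 (adjusted p = 0.322 and 0.343, edgeR) and no call by DESeq2.

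Bmp2 was up-regulated by siTead1/4 in PMs. It stood at 0.776 and 0.770 CPM in siTead1/4 cells at day 0 against 0.487 and 0.479 CPM in siControl, at 12.8 and 15.6 CPM at day 3 against 4.40 and 4.20 CPM, and at 15.7 and 25.7 CPM at day 6 against 5.56 and 8.71 CPM. The siTead1/4 libraries lay above the siControl libraries at each day. The log2 fold change was 0.66 ± 0.36 at day 0 (adjusted p = 0.304, edgeR), 1.71 ± 0.26 at day 3 (adjusted p = 0.0044, edgeR), a ratio of means of 3.31, and 1.54 ± 0.26 at day 6 (adjusted p = 0.0233, edgeR). At day 6 the call was lost without the 1st siControl library (1.25, adjusted p = 0.125, edgeR), without the 2nd siTead1/4 library (1.13, adjusted p = 0.0998, edgeR) and in the fits of 4 or of 24 libraries (adjusted p = 0.219 and 0.118, edgeR). At day 6 the fibroblast markers Dcn and Lum were lower with siTead1/4 (mean CPM of 9.49 against 52.3 and of 0.195 against 1.36), while the sum of all 8 was 957 and 1051 CPM against 1138 and 1106 CPM, and their part was not tested. In C2C12 cells the siTead1/4 libraries of Bmp2 held 0 and 1 counts (day 0), 12 and 3 counts (day 3) and 4 and 3 counts (day 6). No direction can be read from these.

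Of the other ligands, Bmp4 had 1 siTead1/4 library far from the rest. In C2C12 cells at day 3 it stood at 105.6 and 23.5 CPM in siTead1/4 cells against 24.6 and 23.6 CPM in siControl. The log2 fold change of 1.40 ± 0.59 (adjusted p = 0.312, edgeR) became -0.05 without the 1st siTead1/4 library. In that library the fibroblast markers summed to 3695 CPM, against 1583 CPM in its replicate and 2740 and 3363 CPM in the siControl libraries of day 3. The part of these markers was not tested. At day 6 Bmp4 stood at 59.4 and 31.7 CPM against 30.2 and 21.1 CPM (0.83 ± 0.59, adjusted p = 0.886, edgeR). Bmp6 was lower with siTead1/4 in PMs without a call, at 0.235 and 0.198 CPM against 0.487 and 0.282 CPM at day 0, 0.494 and 0.573 CPM against 1.07 and 0.632 CPM at day 3, and 2.16 and 2.48 CPM against 4.01 and 3.95 CPM at day 6. The groups did not overlap at any of the 3 days, the log2 fold changes were -0.86 ± 0.40, -0.67 ± 0.34 and -0.77 ± 0.30, and the adjusted p lay between 0.228 and 0.319 (edgeR). In PMs Bmp4 had 7 to 18 counts per siTead1/4 library and log2 fold changes from 0.05 to 0.31. In C2C12 cells Bmp6 had 35 counts in the 1st siTead1/4 library of day 6 and 2 in the 2nd.

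Nog was not called in either cell type. In C2C12 cells its siTead1/4 libraries stood at 0.658 and 1.79 CPM at day 0, 2.25 and 4.21 CPM at day 3, and 2.33 and 7.18 CPM at day 6, on both sides of siControl each time. In PMs they stood at 10.9 and 12.5 CPM against 6.85 and 9.83 CPM at day 0, 18.7 and 24.2 CPM against 15.5 and 23.3 CPM at day 3, and 33.1 and 42.8 CPM against 24.6 and 34.3 CPM at day 6. The groups did not overlap at day 0, with siTead1/4 above siControl, and overlapped at days 3 and 6, with log2 fold changes of 0.49 ± 0.26, 0.13 ± 0.25 and 0.37 ± 0.25 (adjusted p from 0.296 to 0.811, edgeR).

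Neither inhibitory Smad was called under siTead1/4. In C2C12 cells Smad7 stood at 53.3 and 44.8 CPM at day 0, below siControl, at 43.6 and 26.6 CPM at day 3 and at 16.3 and 19.1 CPM at day 6, above siControl both times. Its log2 fold change was -0.32 ± 0.32, 0.87 ± 0.33 and 0.49 ± 0.33 (adjusted p = 0.831, 0.247 and 0.879, edgeR). Smad6 stood at 32.7 and 20.4 CPM at day 0 against 15.8 and 16.05 CPM, a log2 fold change of 0.73 ± 0.33 (adjusted p = 0.474, edgeR), and in PMs at 23.6 and 36.0 CPM against 15.6 and 19.7 CPM, a log2 fold change of 0.75 ± 0.41 (adjusted p = 0.305, edgeR). The groups at day 0 did not overlap in either cell type. In C2C12 cells Smad6 then stood at 13.1 and 6.39 CPM at day 3 and 9.36 and 9.55 CPM at day 6 (0.40 ± 0.33 and 0.58 ± 0.33). In PMs Smad7 stood at 30.0 and 24.7 CPM at day 0, above siControl by 0.32 ± 0.16 on the log2 scale (adjusted p = 0.254, edgeR). At days 3 and 6 in PMs the log2 fold changes of Smad6 and Smad7 lay between -0.12 and 0.20.

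The Id genes gave no call at any day, and the intervals show how far this reaches. In C2C12 cells Id2 stood at 75.6 and 44.4 CPM in siTead1/4 cells at day 3 against 39.8 and 18.6 CPM, and at 53.0 and 46.5 CPM at day 6 against 33.0 and 23.4 CPM. The groups did not overlap on either day. The log2 fold change was 1.02 ± 0.36 (adjusted p = 0.219, edgeR) and 0.82 ± 0.36 (adjusted p = 0.701, edgeR). At day 0 Id3 stood at 329 and 380 CPM, above the siControl libraries, with a log2 fold change of 0.42 ± 0.65 (adjusted p = 0.906, edgeR). Id1 at day 3 stood at 20.7 and 16.9 CPM against 16.8 and 18.3 CPM, a log2 fold change of 0.08 with an interval of -0.47 to 0.62. Id3 at day 3 stood at 66.9 and 12.2 CPM against 39.5 and 32.5 CPM, and its interval ran from -1.17 to 1.41. In PMs the siTead1/4 libraries at day 3 stood at 7.81 and 18.3 CPM for Id3, 8.07 and 18.7 CPM for Id1 and 8.99 and 14.8 CPM for Id2, all overlapping with siControl. The intervals there were -2.32 to 0.74 for Id3, -1.75 to 1.02 for Id1 and -1.63 to 0.55 for Id2. A 2-fold fall lay within all of these, and a 2-fold rise within that of Id1 only.

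The effect of siTead1/4 was also compared between the cell types. No member was called by edgeR or DESeq2 at day 0, 3 or 6, beside 0.00591%, 1.25% and 0.0354% of all genes. The number with an unadjusted p under 0.05 was 0 at day 0, 3 at day 3 (Grem1, Smad7 and Id2) and 1 at day 6 (Bmp6). Smad7 was called at day 3 without the 1st siControl C2C12 library (-1.59, adjusted p = 0.0458, edgeR), and Bmp6 at day 6 without the 2nd siTead1/4 C2C12 library (-3.40, adjusted p = 0.0392, edgeR), which leaves the one with 35 counts. The largest of the 3 at day 3 was Id2, with a difference of -1.57 ± 0.73 (adjusted p = 0.37, edgeR), followed by Grem1 with -1.24 ± 0.49 (adjusted p = 0.265, edgeR). For Bmp2 the difference cannot be read, since it was hardly detected in C2C12 cells.

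Other genes of the pathway were taken from 6 lists with 59 genes, of which 58 were in the table and 47 were tested in C2C12 cells and 49 in PMs. Under siTead1/4 1 of 47 was called in C2C12 cells at day 3 and none at days 0 and 6, and none of 49 in PMs at any day. The called gene was Fst, encoding follistatin, which traps activins and some BMPs and was down-regulated from a mean of 381 to 85.1 CPM (log2 fold change of -2.19 ± 0.40, adjusted p = 0.0336, edgeR). For Rgmb, a BMP co-receptor, the effect at day 3 was higher in PMs than in C2C12 cells by 1.56 ± 0.30 (adjusted p = 0.0158, edgeR). In siControl cells 13 of 47 rose and 11 fell at day 3 in C2C12 cells, beside 28.7% of all genes called in either direction, and 9 of 49 rose and 14 fell in PMs, beside 32.3%. At day 6 against day 0 these were 15 and 9 in C2C12 cells, beside 31.1%, and 14 and 11 in PMs, beside 35.5%. The counts of single lists that follow are for day 6 and are to be read against the same 31.1% and 35.5%. Of all genes tested, 2611 of 15303 rose and 2150 fell in C2C12 cells, and 3269 of 16144 rose and 2465 fell in PMs.

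Among 12 further ligands, of which 5 were tested, 3 rose and 0 fell at day 6 in both cell types. Ligands low in every group were not tested, so these counts favour those that were high at some day. Gdf6 rose from a mean of 1.34 to 38.3 CPM in PMs and from 0.0141 to 1.59 CPM in C2C12 cells, Bmp8a from 0.145 to 1.18 CPM in PMs and from 0.0815 to 1.36 CPM in C2C12 cells, Gdf5 from 0.0548 to 18.6 CPM in C2C12 cells and Bmp5 from 0.145 to 1.10 CPM in PMs. Bmp10 was not found in the table. Of 10 receptors and co-receptors, 4 of 9 tested rose in C2C12 cells and 3 of 10 in PMs at day 6, and none fell. They were led by Hfe2, the co-receptor hemojuvelin (log2 fold changes of 8.81 and 2.70), and Rgma (3.34 and 1.58), with Rgmb (2.11) in C2C12 cells and Acvrl1 (2.66) in PMs. Of the 6 Smads and Smurf ligases only Smad9 was called, and it fell from 10.8 to 1.77 CPM in C2C12 cells and from 9.87 to 1.48 CPM in PMs by day 6.

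Of 16 further antagonists, 5 of 13 tested rose and 3 fell in C2C12 cells at day 6, and 7 of 14 rose and 2 fell in PMs. Chrd, encoding the BMP trap chordin, rose in both, from 3.08 to 82.8 CPM in C2C12 cells and from 4.61 to 88.9 CPM in PMs. Fst rose from 5.63 to 394 CPM in C2C12 cells and from 19.0 to 79.6 CPM in PMs. Of 8 further BMP targets, 4 of 7 tested fell at day 6 in each cell type and none rose. Sp7, a factor of bone-forming cells, fell from 83.1 to 0.374 CPM in PMs, and Runx2, another one, from 68.6 to 10.8 CPM in PMs and from 60.1 to 21.1 CPM in C2C12 cells, while Atoh8 fell from 75.2 to 5.76 CPM and from 27.0 to 9.01 CPM. Of 7 genes for E proteins or for the myogenic factors that pair with them, 3 rose and 1 fell in C2C12 cells at day 6. In PMs 1 rose and 4 fell. Tcf3, an E protein that Id proteins bind, fell in both (log2 fold changes of -1.39 and -1.82), and Myog rose by 7.05 in C2C12 cells. The median log2 fold change at day 6 in C2C12 cells and PMs was 0.62 and 0.65 for the receptors and 0.71 and 1.12 for the antagonists. It was -1.33 and -2.73 for the targets, and -0.01 and 0.03 over all genes. For the ligands it was 3.89 and 2.83, but only 5 of 12 passed the filter on low counts. Some of these, such as Gdf5 in C2C12 cells, passed through the later days, so the ligand medians cannot be set against all genes.

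The genes whose pattern was most like that of a member were sought by Pearson's r over the means of the 12 groups (log2 CPM). For Id3 they were Hmgb1 (0.985), Gm10075 (0.984) and Mrps6 (0.984), and for Id1 Hmgb1 (0.985), Id3 (0.983) and Acp1 (0.981), and Id3 was the only member among the nearest 3 of another. For Bmp2 they were Nat8l, Birc3 and Chrm3 (0.988 to 0.991), for Bmp4 Gng4, C1rb and Cp (0.988 to 0.992), for Grem1 Slc35d2, Apol10b and Foxc1 (0.988 to 0.990), for Nog Celsr3, Fgf9 and Pgpep1l (0.986 to 0.987) and for Id2 Bzw1, Tdp2 and Tfap4 (0.980 to 0.987). The nearest gene was BC048644 for Bmp6 (0.971), Ptgr1 for Smad6 (0.982) and Ccdc41 for Smad7 (0.967). With 12 points that fall by cell type and day, such values are a description only.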

How the data were processed

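Libraries of polyadenylated RNA (TruSeq RNA v2, without strand) were sequenced by the authors, who mapped the reads to mm9 with Tophat. The submitters' processing notes list CASAVA 1.8.2, TopHat2 2.0.10, Bowtie2 2.1.0, HTSeq 0.6.1 and DESeq2 1.8.1, and the annotation release is not given in the sources used here. The deposited table holds raw read counts per gene, which were used here, and counts divided by size factors, gene length and annotation. A further 36 columns belong to 12 other libraries with no entry in the sample list and were left unused.

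The members and the gene lists were chosen with earlier results of these data known. The raw counts were fitted with edgeR 4.0.16 under R 4.3.3 (filterByExpr, TMM, glmQLFit, glmQLFTest). Each cell type was fitted on its 12 libraries with 1 mean per group, and comparisons of the cell types on all 24. P-values were adjusted by Benjamini-Hochberg over all genes tested in a comparison, and calls in the 22 comparisons needed both a value under 0.05 for this p and a log2 change beyond 1 in size. CPM were computed with TMM over the 24 libraries. Intervals of fold changes are 1.96 SE wide on each side. Alternatives were DESeq2 1.42.0 with and without shrunken fold changes, other scaling, filters and sets of libraries, a replicate block, and leaving out each library.

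All members are named. Other pathway genes are named where called under siTead1/4 or among the 3 largest changes of a list with time, and as the 3 genes nearest to a member.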

Additional observations from a re-analysis of the deposited data

Results flagged for a closer look

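Smad7, Grem1 and Bmp2 changed differently between the cell types from day 0 to day 6 in siControl cells, by a test of the difference itself (edgeR interaction, all 24 libraries). The difference of log2 fold changes, PMs minus C2C12 cells, was 1.76 for Smad7 (adjusted p = 0.00416), 1.89 for Grem1 (adjusted p = 0.0133) and 3.71 for Bmp2 (adjusted p = 0.0316). That of Bmp2 rests on 2 or 3 counts per C2C12 library, and its fitted size depends on the prior count.

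In another 3 cases all libraries moved one way in 1 group and the other way in another, while the test of the difference gave no call. Smad7 under siTead1/4 at day 0 was lower in C2C12 cells and higher in PMs (difference of 0.65, adjusted p = 1, edgeR). In C2C12 cells the effect of siTead1/4 at day 3 minus that at day 0 was 2.02 for Grem1 (adjusted p = 0.0801, edgeR) and 1.19 for Smad7 (adjusted p = 0.351, edgeR), both lower at day 0 and higher at day 3. These last comparisons were added after the data were seen.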

How the results depend on the processing

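Of 75 results of single members, 52 were called. With RLE normalization all 75 kept direction and call, with DESeq2 69 did (1 lost and 5 gained the call) and without the filter on low counts 64 did (11 gained it). Leaving out 1 library at a time cost 14 called results the call at least once. The number of members called under siTead1/4 in C2C12 cells at day 3 (1) became 3 without the filter, 0 with the 4 libraries alone and 0 to 1 leaving out a library. In PMs at day 0 (0) it was 1 without the filter, with DESeq2 (shrunken or not) and with the 4 libraries alone, and at day 6 (1) it was 0 with 24 or 4 libraries and 0 to 1 leaving out a library. For the effect at day 3 minus day 0 (0) it was 1 in C2C12 cells without the filter and with DESeq2, and 0 to 1 leaving out a library, and 1 in PMs without the filter. For the difference between cell types (0) it was 2 at day 3 without the filter, and 0 to 1 at days 3 and 6 leaving out a library. For siControl PMs at day 6 against day 3 (1) it was 2 without the fold threshold and 0 with 24 libraries. For the difference in differentiation it was 1 in place of 0 at day 3 without the filter or with DESeq2, and 1 to 3 in place of 3 at day 6 leaving out a library.

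Without the 1st siTead1/4 C2C12 library of day 3 the log2 value of Bmp4 changed sign. Leaving out 1 library at a time, it ran from -0.052 to 2.12 for siTead1/4 at day 3, from -0.30 to 1.87 for day 3 minus day 0 and from -1.80 to 0.34 for PMs minus C2C12 cells. Without the 1st siTead1/4 C2C12 library of day 6 that of Bmp6 for PMs minus C2C12 cells changed sign too, with a range of -3.40 to 1.001. The cause was not tested.

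With 2 libraries per group the replicate numbers could not be shown to pair the samples. The correlation of same-numbered deviations was between 0.133 and 0.539 in all 6 comparisons within PMs, and between 0.0951 and 0.525 in 5 of the 6 within C2C12 cells, with -0.142 for siTead1/4 at day 0. With a replicate block, 1 member in place of 0 was called under siTead1/4 in PMs at day 0 (Grem1, -1.25, adjusted p = 0.0158, edgeR) and 1 in place of 0 for the difference in differentiation at day 3 (Bmp4, -2.72). Bmp4 at day 6 in the same difference (-2.53, adjusted p = 0.0331, edgeR) and Nog in siControl C2C12 cells at day 3 (1.497, adjusted p = 0.0241, edgeR) also gained the call, Bmp6 in PMs against C2C12 cells at day 3 lost it (1.67, adjusted p = 0.0807, edgeR), and the other 70 of the 75 results kept theirs. In C2C12 cells at day 0 the replicate block called 82 genes and the crossed pairing, added after the data were seen, 120, in place of 67. In PMs the block called 586, 792 and 290 genes under siTead1/4 at days 0, 3 and 6, in place of 420, 532 and 120.

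Over all genes, the calls under siTead1/4 at days 0, 3 and 6 were 67, 195 and 7 in C2C12 cells, 255, 597 and 143 with DESeq2, 480, 1055 and 387 without the filter and 0, 7 and 0 with the 4 libraries alone. In PMs they were 420, 532 and 120, with a range of 204 to 1247, 312 to 1184 and 0 to 335 over the alternatives that keep all libraries of a comparison. Depth limits Bmp2 and Bmp6 in C2C12 cells and Bmp4 in PMs, at under 20 counts in most libraries.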
